A study of Mus musculus with 5 samples.

Results

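The cells described here were a small set within the VitA+Col1a1+ fraction of a diseased mouse liver, chosen by their RNA for 6 genes of fibroblast matrix and metabolism. In the single-cell library of that fraction, cells with at least 5000 unique molecular identifiers (UMIs, 1 per captured RNA molecule) and no UMI of Pecam1 or Ptprc were kept, which left 9946 of 10481 cells. A cell was a member if at least 3 of Mgp, Mfap4, Dpt, Fmod, Fmo2 and Fam180a were detected in it. This gave 180 members, or 1.81% of the kept cells (exact 95% interval 1.56 to 2.09%), among 24007 cells in the 5 libraries of the series. The comparison cells were the 7977 kept cells in which none of the 6 genes was detected, and 1789 cells with 1 or 2 of the genes lay between.

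The mice were males of the genotype Rosa26mTmG;Col1a1-Cre on a C57BL/6J background, in which Cre under the Col1a1 promoter turns on green fluorescent protein, so that Col1a1+ describes past activity of that promoter and not the RNA at sorting. DEN+WAD mice had received diethyl nitrosamine (DEN), a liver carcinogen, at 10 mg/kg and 2 weeks of age, and from 6 weeks of age a liquid Western alcohol diet (WAD) with 3.5% ethanol by volume for 5 months, while chow mice had received saline and chow. VitA+ and VitA- cells were separated by the autofluorescence of stored vitamin A under ultraviolet light. From DEN+WAD mice there were libraries of VitA+Col1a1+ and VitA-Col1a1+ cells and a library labelled VitA-Col1a1-, and from chow mice libraries of VitA+Col1a1+ and VitA-Col1a1+ cells. The library labelled VitA-Col1a1- held Col1a1 RNA against its label, at 1060 counts per 1000000 UMIs even in its cells with none of the 6 genes. How many animals went into a library was not stated.

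Hepatic stellate cells (HSC) are the pericytes of the liver sinusoid. They hold retinyl esters made by Lrat and, once activated, lay down fibrillar collagen. Portal fibroblasts lie around the bile ducts and portal vessels, store no vitamin A and are known for Fbln2, Thy1, elastin and Col15a1. Mgp (matrix Gla protein, an inhibitor of calcification), Mfap4 (a microfibril-associated glycoprotein), Dpt (dermatopontin, a matrix protein that binds decorin), Fmod (fibromodulin, a collagen-binding proteoglycan) and Fmo2 (a flavin-containing monooxygenase) are widely seen in fibroblasts. Cyp1b1, a cytochrome P450, can make the lipid mediator 12-HHTrE from prostaglandin precursors, and Gas6 is the ligand of the TAM receptor kinases Tyro3, Axl and Mertk.

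The promoters of Dpt and Fam180a are shown because these genes were detected in the most members, and that of Cyp1b1 because it is the gene the study followed among cytochromes. Each runs from 250 bases before to 50 after the RefSeq start site in build GRCm38.p6, 5′ to 3′ on the gene's strand. The table held no entry for Mgp or Mfap4. Capitals mark matches on either strand to GCGTG, the core bound by the aryl hydrocarbon receptor, and to TGANTCA, the AP-1 motif.
Dpt promoter, chr1:164796413-164796712, plus strand: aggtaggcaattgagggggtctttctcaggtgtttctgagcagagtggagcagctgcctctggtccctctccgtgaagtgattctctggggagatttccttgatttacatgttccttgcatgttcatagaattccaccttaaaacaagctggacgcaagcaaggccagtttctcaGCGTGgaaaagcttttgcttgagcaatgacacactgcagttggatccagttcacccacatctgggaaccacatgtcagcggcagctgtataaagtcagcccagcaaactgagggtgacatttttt
Fam180a promoter, chr6:35326092-35326391, minus strand: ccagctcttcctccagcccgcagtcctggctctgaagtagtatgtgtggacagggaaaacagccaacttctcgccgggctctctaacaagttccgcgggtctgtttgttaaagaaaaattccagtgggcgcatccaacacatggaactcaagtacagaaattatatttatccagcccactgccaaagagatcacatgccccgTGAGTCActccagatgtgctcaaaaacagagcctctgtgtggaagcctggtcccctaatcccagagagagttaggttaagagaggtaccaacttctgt
Cyp1b1 promoter, chr17:79715012-79715311, minus strand: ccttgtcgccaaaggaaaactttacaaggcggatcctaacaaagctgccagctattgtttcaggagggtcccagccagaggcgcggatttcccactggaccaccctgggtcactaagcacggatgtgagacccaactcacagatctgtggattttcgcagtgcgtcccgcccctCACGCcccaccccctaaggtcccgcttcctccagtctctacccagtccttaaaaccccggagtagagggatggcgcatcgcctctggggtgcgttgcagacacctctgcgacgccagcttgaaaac
Dpt and Cyp1b1 each held 1 match to GCGTG, starting 75 and 76 bases before the start site, and Fam180a held 1 match to TGANTCA, 48 bases before it. GCGTG was found in 32.4% and TGANTCA in 7.81% of all 32851 promoters of this length. GGAATG, a motif of the TEAD factors, was present in 14.7% of promoters and in none of these 3.

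Members were deeper than the comparison cells, which bears on a rule that asks for detection. Their median depth was 19427 UMIs over 4613.5 genes, against 13082 UMIs over 3583 genes in comparison cells, and 30 members (16.7%) exceeded 30000 UMIs against 1.32% of comparison cells. The mitochondrial share was alike, at 2.99% and 2.73% of UMIs. When each kept cell was thinned at random to 5000 UMIs, 100 of them had at least 3 of the 6 genes, all of them members at full depth. Ptprc had 0 UMIs in this library and in the other 3 Col1a1+ libraries, so that this condition removed no cell there, and the 267 cells removed all carried Pecam1. No barcode of a member occurred in another library. Doublet scores from Scrublet had a median of 0.0604 in members and 0.0856 in comparison cells, and 1 member was among the highest 8% of scores. The caller itself marked only 1 cell of the library and cannot be said to have worked.

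The label of Mgp and Mfap4 fitted the members only in part. Dpt was detected in 173 members (96.1%) and Fam180a in 172 (95.6%), whereas Mfap4 was found in 105 (58.3%), Fmo2 in 99 (55%), Fmod in 90 (50%) and Mgp in 78 (43.3%). The most frequent pattern was all 6 genes, in 25 cells, followed by Dpt with Fmo2 and Fam180a in 23 and Dpt with Fmod and Fam180a in 19. A single cell carried 451 of the 2620 Mgp UMIs of the members, or 17.2%. Lrat was also detected in 174 members, and Thy1 in 1. They are therefore called members here, after the rule.

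Levels below are counts per 1000000 UMIs (CPM) over the pooled cells of a class, with the 6 rule genes left out of the totals. Intervals are exact, at 95%, and cover counting error only. Each class came from 1 library, so no replicate spread exists and no test was made. The cells were selected on RNA of the same library, so the contrast with comparison cells is a description. A gene was called higher or lower past a 2-fold ratio after adding 5 CPM, if the mean of its levels in members and comparison cells was at least 10 CPM. Of 7993 genes that passed this filter, 334 were higher in members (4.18%) and 150 lower (1.88%), with a median log2 ratio of 0.05.

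Lrat, the enzyme that esterifies vitamin A for storage, was present but reduced in members. It stood at 675 CPM (649 to 701) against 1584 in comparison cells, a 2.35-fold lower level. Over single members it ran from 0 to 2530, with a median of 592 against 1528 in comparison cells, so the ranges overlapped while 9 members exceeded the comparison median. Lrat was detected in 174 of 180 members, and at 5000 UMIs per cell in 87.2% (81.4 to 91.7%) against 99.5% of comparison cells. In the Pecam1-positive cells of the same library, where endothelial cells should lack it, the thinned share was 44.2% and the pooled level 729, at a median depth of 11179 UMIs. What these cells are was not tested, so they give no measured background. The share of members with Lrat lay above the share in Pecam1-positive cells, but the members' pooled level did not lie above theirs.

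Cyp1b1 was concentrated in members. Its level was 79.5 CPM (70.9 to 88.8) against 0.698, a ratio of 114 (88.5 to 148), and 126 members (70%) had at least 1 UMI against 0.802% of comparison cells. At 5000 UMIs per cell the shares were 32.2% and 0.376%, and 3.75% in Pecam1-positive cells. Single members ranged from 0 to 365 with a median of 56.4. The comparison median was 0 and its highest cell stood at 267, a level that 7 members exceeded. Members made up 1.72% of the library's cells and 2.61% of its UMIs and held 37.8% of its Cyp1b1 UMIs. Of the 403 kept cells with Cyp1b1, 126 (31.3%) were members, so most lay outside the set. Against comparison cells drawn to the same depth the ratio was smaller, at 6.07 on the log2 scale in place of 6.83.

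Gas6 was likewise concentrated in members. It stood at 437 CPM (417 to 458) in members and 2.32 in comparison cells, a ratio of 188 (165 to 216), and 157 members (87.2%) carried it against 2.01%. Single members reached 7605 with a median of 265, against a median of 0 and a highest value of 1090 in comparison cells. Members held 47.4% of the Gas6 UMIs of the library. Gas6 was also common in the Pecam1-positive cells, with a thinned share of 46.8% against 67.2% in members, and when those cells were not removed the ratio dropped from 7.56 to 6.11 on the log2 scale. All of Cyp1b1, Gas6 and Lrat were detected together in 110 members. Of the TAM receptors, Axl was higher in members at 172 against 70.5, Mertk stood at 28.7 and 22.0, and Tyro3 was below the filter.

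**Figure D1:**
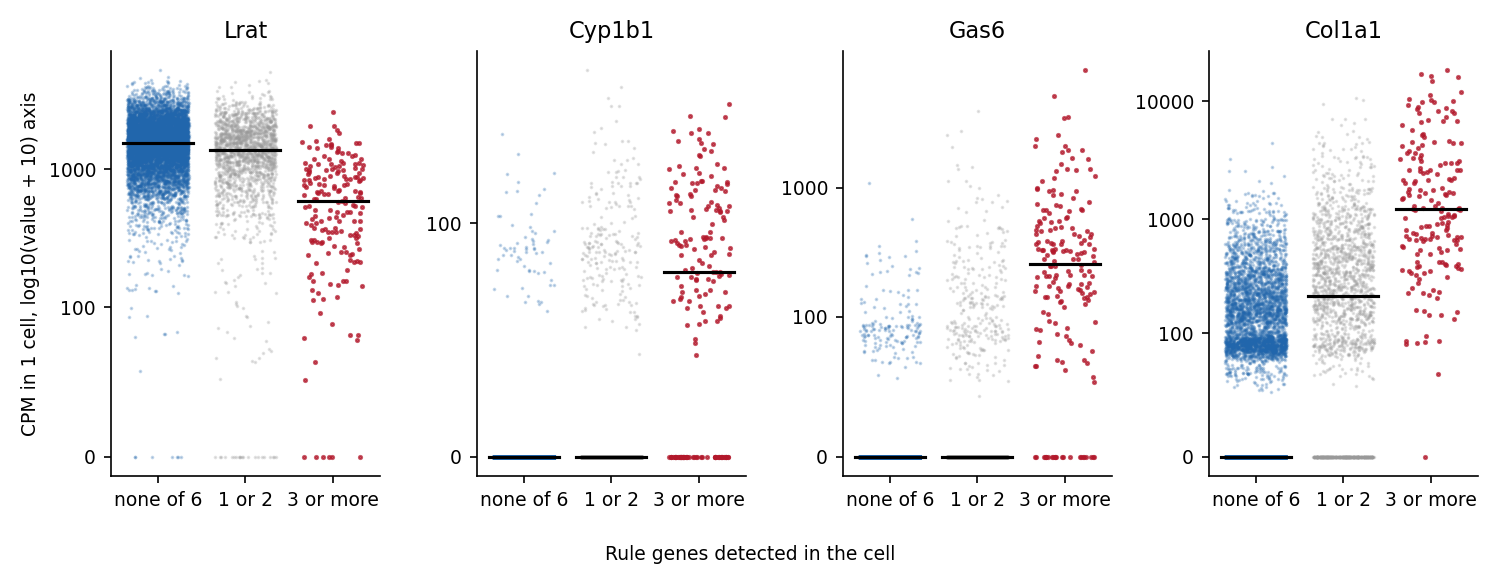
Level of Lrat, Cyp1b1, Gas6 and Col1a1 in each kept cell of the VitA+Col1a1+ DEN+WAD library, in CPM on a log10(value + 10) axis, for cells with none of the 6 rule genes (7977, blue), with 1 or 2 (1789, grey) and with 3 or more (180, red). Black bars are medians. Member medians were 592 for Lrat, 56.4 for Cyp1b1, 265 for Gas6 and 1222 for Col1a1, and the ranges of the classes overlap in every panel.

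Collagen RNA as a whole was 3.64-fold higher in members, at a sum of 19638 CPM against 5393 over 44 collagen genes. Of the 44, 10 had no UMI in members and 19 passed the filter, of which 13 were higher and 0 lower, beside 4.18% higher over all genes. Some passed only through their level in members, such as Col15a1, so the count is in part set by the filter. Col1a1 stood at 3430 CPM (3373 to 3489) against 120, a ratio of 28.5 (27.8 to 29.2), and was detected in 179 members. Single members ran from 0 to 18396 with a median of 1222, whereas the comparison median was 0 and 33 members exceeded the highest comparison cell. The ratio shifted under settings that changed depth. It was 4.83 on the log2 scale and 4.68 with the rule applied after thinning to 5000 UMIs. Without cells over 30000 UMIs it was 4.39, and against depth-matched comparison cells 3.94. The cause of these shifts was not tested.

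The other fibrillar collagens were mostly higher as well. Col1a2 was at 4080 against 446 (9.15-fold), Col3a1 at 5758 against 790 (7.29-fold) and Col5a2 at 371 against 65.3, while Col5a1, at 346 against 214, was not past 2-fold. Col15a1, a basement membrane collagen of portal fibroblasts and activated stroma, was at 188 against 0.913, a ratio of 205 (167 to 255), and was found in 101 members. Microfibrillar collagen VI was higher in each of its chains that passed the filter, with Col6a3 at 708 against 105. Col14a1, a fibril-associated collagen already abundant in stellate cells, was nearly level at 1889 and 2370, as was Col4a1 of the basement membrane at 906 and 626.

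**Figure D2:**
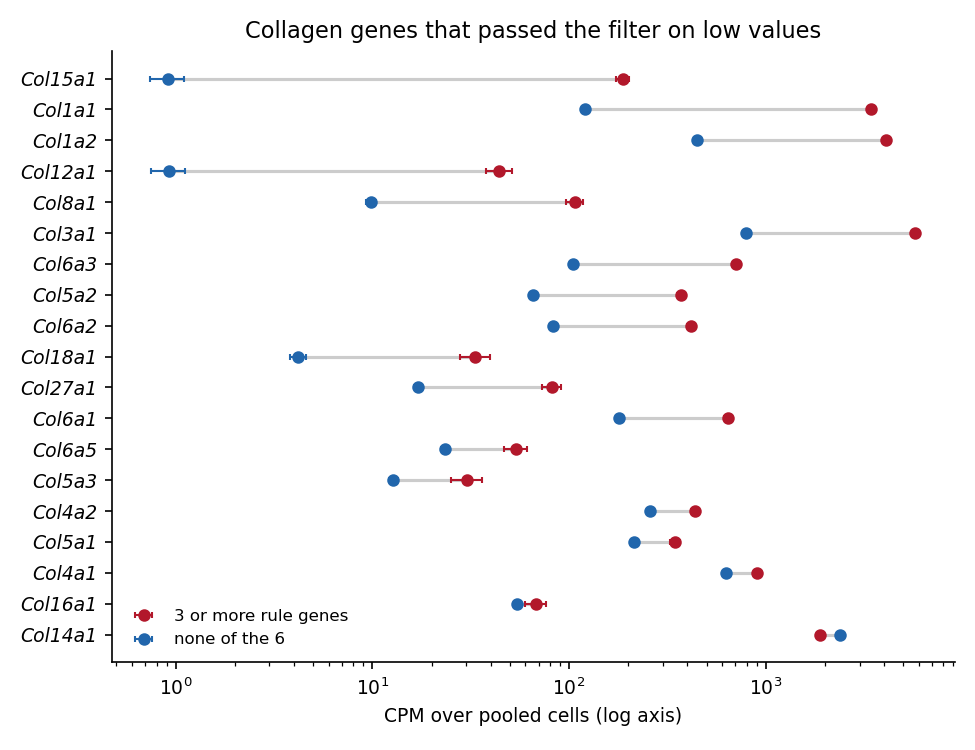
Levels of the 19 collagen genes that passed the filter on low values, in CPM over pooled cells (log axis), in members (red) and comparison cells (blue). Bars are exact 95% Poisson intervals. Col15a1 had the widest separation, 188 against 0.913, and Col14a1 was the 1 gene with a lower level in members.

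Genes that process collagen and elastic fibres were higher in part. Of 16 collagen processing genes that passed, 7 were higher and 0 lower, among them the crosslinking oxidases Lox (86.9 against 2.12), Loxl1 (377 against 31.5) and Loxl2 (258 against 104). The collagen chaperone Serpinh1 stood at 1515 and 1116. Of 13 elastic fibre and microfibril genes, 7 were higher and 0 lower, including elastin (Eln) at 214 against 14.3, Fbln1 at 82.5 against 1.1 and the latent TGF-beta binding protein Ltbp2, which was nearly absent from comparison cells, at 83.8 against 0.0537. Among small leucine-rich proteoglycans, Lum, Ogn, Podn and Ecm2 were higher, whereas decorin (Dcn) stood at 17941 and 27125. Of 9 matrix metalloproteinases and inhibitors, 7 were higher, with Mmp2 at 274 against 49.8 and Timp1 at 387 against 44.5. The number of genes called in these lists can be set against 4.18% of all genes, although the lists were compiled with results of these data known. Some genes passed only through their level in members, such as Lox, Fbln1 and Ltbp2, so the counts are in part set by the filter.

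Many stellate cell markers were lower in members. Of 16 markers, all of which passed the filter, 11 were lower and 0 higher, beside 1.88% lower over all genes, and their median log2 ratio was -1.56. In Pecam1-positive cells Rgs5 stood at 1686 CPM and Ecm1 at 4714, above the members' levels, and the part of free RNA in the members' values was not tested. Rgs5, a regulator of G protein signalling in pericytes, was at 657 against 3563 (5.42-fold lower), the lectin Colec10 at 291 against 1876 (6.44-fold) and Ecm1, a secreted matrix protein, at 3049 against 10730 (3.52-fold). The receptor Gcgr, for glucagon, showed the largest reduction among the 15 leading genes, 20.2-fold from 51.7 to 2.56, with 8 members positive. The other 5 stellate markers stayed within 2-fold, such as Reln at 745 and 1206 and desmin (Des) at 300 and 327. Of 9 stellate transcription factors that passed, 0 were called in either direction, with Lhx2 at 240 and 395, Hand2 at 241 and 366 and Tcf21 at 565 and 610. Over all genes 4.18% were higher and 1.88% lower, so 0 of 9 is near those shares. Of the 8 retinoid storage genes that passed, Lrat and the lipid droplet protein Plin2 (140 against 325) were lower.

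Portal fibroblast markers were present in a partial set. Of 14 listed, 8 passed the filter and 7 were higher (4.18% over all genes): Fbln2, Eln, Cd34, Clec3b, Col15a1, Ly6a and Gsn. Fbln2, Cd34, Clec3b and Col15a1 passed only through their level in members. Fbln2 was at 36.9 CPM (31.1 to 43.5) against 0.161 and was detected in 43 members. The markers Slit2, Pi16, Dpp4 and Mfap5 had 0 UMIs in members, and Thy1 had 1 UMI in 1 member. Of the 94 kept cells with Lrat and Fbln2 but no Thy1, 42 were members (44.7%), 38 had 1 or 2 rule genes and 14 had none. Among the 126 members with Cyp1b1, 33 also had Fbln2 and 93 did not.

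Markers of other cell types were mostly at or near 0 in members. Of 10 mesothelial markers, 8 were at 0, and Wt1, a transcription factor of mesothelium and of stellate precursors, was at 98.4 against 0.851 and was detected in 101 members. For macrophages 7 of 10 markers were at 0, with a summed level of 22.8 against 3.35, nearly all of it Lyz2 at 19.5 against 0.842. Adgre1 and Cd3e, like Ptprc, had 0 UMIs in all cells of the 4 Col1a1+ libraries, so their zeros say nothing particular of members. Lymphocyte and neutrophil markers summed to 1.79 against 2.67, with 7 of 10 at 0. Hepatocyte markers summed to 67.7 against 7.86, of which Cyp2e1 gave 51.5, in 11.1% of members, while albumin (Alb) stood at 2.31 and 2.82. Endothelial markers summed to 53.3 against 143, with Pecam1 at 0 by the rule and Cdh5 and Kdr at 0. Their part in the other differences was not tested.

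Some of the 25 leading genes are given here, and no role shared among them was tested. After Gas6 came S100a6, a calcium-binding protein, at 910 against 11.4 in 91.1% of members. Ncam1 (an adhesion molecule also seen on portal fibroblasts) was at 134 against 0.492 with a ratio of 272 (206 to 366), Alcam, another adhesion molecule, at 687 against 33.4, and Ackr3, a scavenging receptor for Cxcl12, at 121 against 1.51. Igf1, a growth factor, was at 135 against 6.79 in 118 members. Some leading genes were carried by few members. Complement C3 (128 against 1.93) was found in 49 members, Wisp2 in 34, Serpinf1 in 29 and Cd74, the invariant chain of class II antigen presentation, in 28.

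**Figure D3:**
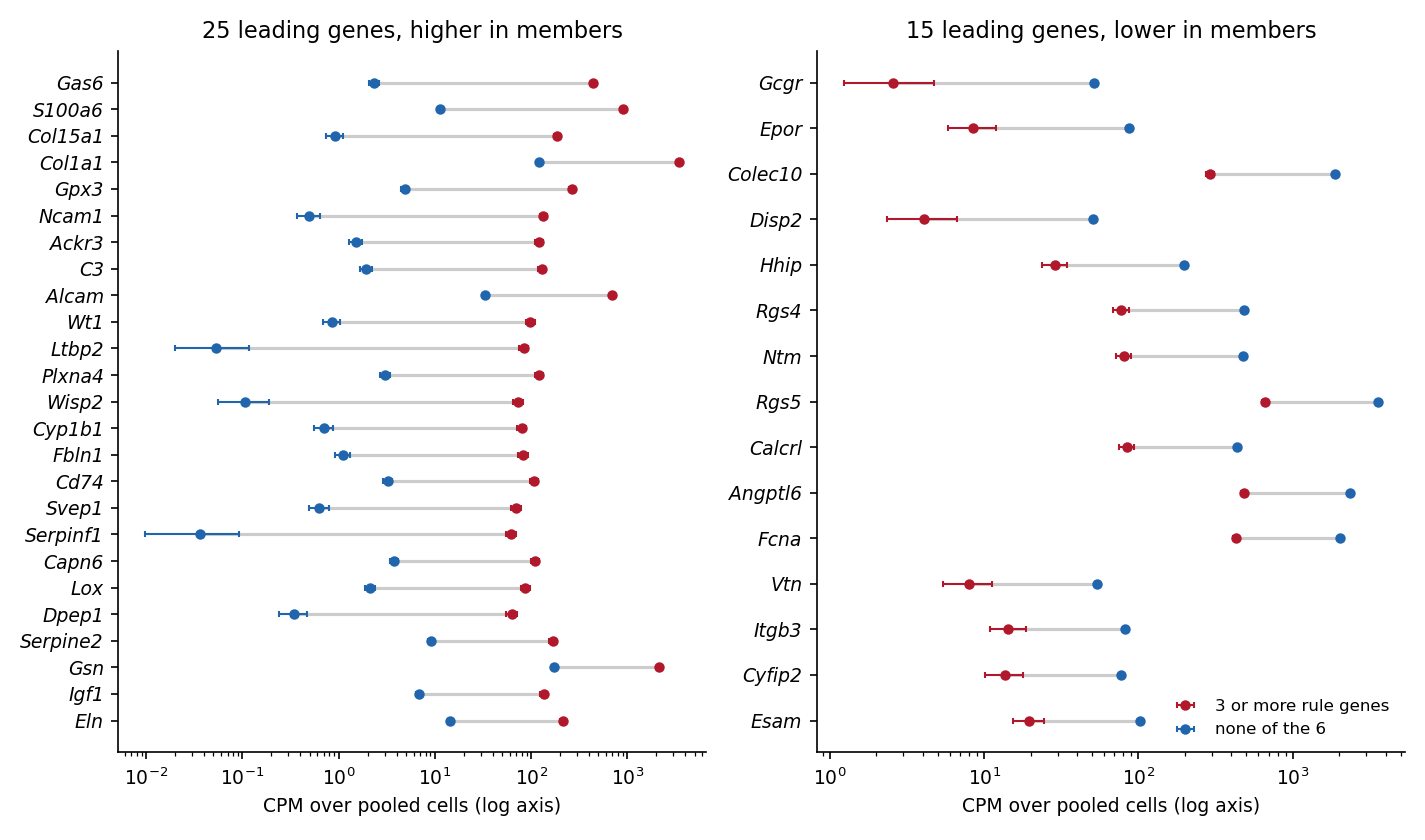
Pooled levels in CPM (log axes) of the 25 genes with the highest and the 15 with the lowest ratio of members (red) to comparison cells (blue), ranked after adding 5 and without the rule genes. Bars are exact 95% Poisson intervals. Gas6 leads the left panel at 437 against 2.32 and Gcgr the right panel at 2.56 against 51.7.

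Enzymes of prostanoid metabolism and the study's tumour promoter genes were also examined. Of 6 genes of 12-HHTrE and prostanoid synthesis that passed, Cyp1b1, Ptgs2 (the inducible cyclooxygenase, 51.5 against 3.96), Ptgis (prostacyclin synthase, 161 against 30.7) and Hpgd (which degrades prostaglandins, 29.0 against 4.06) were higher. Cyp1a1 and Tbxas1, which can also give 12-HHTrE, had 0 UMIs in members. All 6 tumour promoter genes were higher: Ereg, Vegfa, Gas6, Mmp2, Cd44 and Mmp23, with a median log2 ratio of 2.22. The study chose that list on these samples, so its direction is not independent evidence. Beside the counts of both lists, 4.18% of all genes were higher. Genes such as Cyp1b1, Ptgs2, Hpgd and Gas6 passed the filter only through their level in members, which in part sets these counts. Scd2, the desaturase the study deleted in other mice, was level at 65.4 (57.6 to 73.9) and 61.2.

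Smooth muscle and activation genes varied among members. Acta2, the smooth muscle actin of activated stellate cells, was at 629 against 68.3 and Tagln at 2068 against 581, while Myh11 of mature smooth muscle stood at 24.9 and 27.2. Acta2 was detected in 87 members only. Its median was 0, its upper quartile 391 and its highest value 11763, so that a minority of members held most of it. The heat-shock genes Hspa1a, Hspa1b, Dnajb1 and Hsph1 were lower in members, with Hspa1a at 1276 against 4583. They were 4 of 17 immediate-early and heat-shock genes, beside 1.88% lower over all genes. In that list 0 genes were higher, which is near the 4.18% over all genes.

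Levels were graded with the number of rule genes detected. Just inside the threshold, the 85 cells with exactly 3 genes had Gas6 at 194, Cyp1b1 at 73.5, Col1a1 at 2260.0 and Lrat at 774 CPM. Just outside it, the 373 cells with 2 genes had 64.5, 31.4, 1068 and 1195. Gas6 went on to 1166 in the 25 cells with all 6 genes and Lrat to 506, whereas Cyp1b1 was flat from 3 genes upward, between 73.5 and 86.7. Acta2 was highest in cells with 4 genes, at 874, and lower at 413 in those with 6. Des and Col14a1 changed little over the whole range. Median depth was 13082 UMIs in cells with none of the genes, 15874 with 2, 21253 with 3 and 19028 with 6, so that depth moved with the count up to 3 genes and not beyond.

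**Figure D4:**
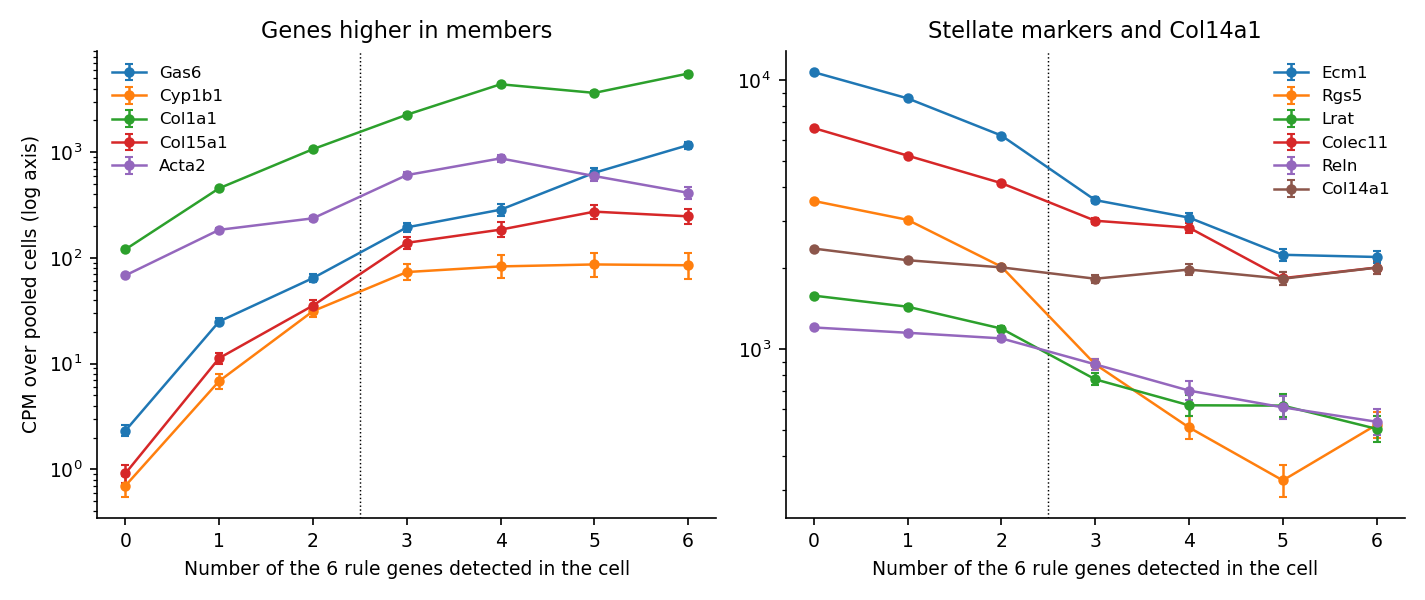
Pooled levels in CPM (log axes) by the number of the 6 rule genes detected in a cell, with exact 95% Poisson intervals. The dotted line marks the threshold of the rule. Cyp1b1 was level from 3 genes on at 73.5 to 86.7, while Gas6 continued from 194 to 1166 and Lrat went down from 774 to 506.

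Members with and without Mgp were compared with each other at close depths, 18766 and 19960.5 UMIs. Mgp and Mfap4 are rule genes, and all 25 cells with 6 rule genes carried both, so the number of rule genes moved with each split. Whether the differences followed that number was not tested. The 78 with Mgp had more C3 (232 against 48.9, a ratio of 4.74 with an interval of 3.82 to 5.92), Serpinf1 (4.20-fold), Ptgs2 (3.73-fold), Fbln1 (3.31-fold) and Gas6 (601 against 311, 1.93-fold). The 102 without Mgp had more Acta2, at 740 against 486, whereas in a split by Mfap4 the 105 cells with it had more, at 772 against 417 (1.85-fold, 1.69 to 2.03). Lrat differed little, at 618 with Mgp and 719 without, and the intervals of Cyp1b1 overlapped a ratio of 1, at 87.3 and 73.4 (1.19-fold, 0.945 to 1.5).

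When kept cells were clustered without the 6 genes, 152 of the 180 members (84.4%) fell in 1 of 15 clusters. That cluster had 452 cells, of which 33.6% were members, 208 had 1 or 2 rule genes and 92 had none. The other 28 members were spread over 5 clusters.

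The same rule was applied to the other libraries, whose cells had no part in choosing the members. It was met by 989 of 2053 kept cells in VitA-Col1a1+ DEN+WAD (48.2%), 490 of 592 in VitA-Col1a1+ chow (82.8%), 1138 of 3763 in the library labelled VitA-Col1a1- (30.2%) and 1 of 233 in VitA+Col1a1+ chow (0.429%, with an interval of 0.0109 to 2.37%). At 5000 UMIs per cell these shares were, in the same order, 35.3%, 75.5%, 23.4% and 0.429%, against 1.01% here. The VitA- fractions thus held far larger shares than either VitA+ fraction, a difference that the gate itself can set. With 1 library for each treatment, the shares in the VitA+ libraries were not compared.

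The genes called here were then looked up within those libraries. Of the 334 genes higher here, 228 were also higher in VitA-Col1a1+ DEN+WAD, where 4.71% of all genes were higher and 2.77% lower. In VitA-Col1a1+ chow, with only 25 comparison cells, 233 were higher, against a background of 9.05% higher and 4.79% lower. The library labelled VitA-Col1a1- had 179, against 3.96% and 4.07%. The 228 were 68.3% of the genes higher here and 58.9% of those higher in VitA-Col1a1+ DEN+WAD. Of the 150 lower genes, 117, 114 and 71 were lower there, and the last is 47.3% of them. Cyp1b1 in cells that met the rule was close in all 4 libraries, at 79.5 here, 72.6 in the VitA-Col1a1+ cells of DEN+WAD mice, 80.6 in those of chow mice and 100 in the library labelled VitA-Col1a1-. Its comparison cells had 0.698, 2.92, 0 and 3.43. Col1a1 was higher than in comparison cells in each of these, by 4.38-fold, 7.32-fold and 2.80-fold outside the VitA+ gate. Acta2 went the other way there, at 658 in cells that met the rule and 1062 in comparison cells of VitA-Col1a1+ DEN+WAD, although the levels of cells that met the rule were close.

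Cells that met the rule nevertheless differed between the VitA+Col1a1+ and VitA-Col1a1+ libraries of DEN+WAD mice. Gate and library differed together in this comparison and cannot be told apart. Against the VitA-Col1a1+ DEN+WAD cells, 57 genes (0.69%) were higher and 222 (2.69%) lower in the VitA+ members of 8262 genes. Of the 16 stellate markers, all but Des (300 against 333) were higher here, several within 2-fold, such as Ecm1 (3049 against 1996). Those past 2-fold included Lrat at 675 against 322 (2.10-fold, 2.00 to 2.19), Reln at 745 against 317 and Lhx2 at 240 against 109. Col1a1, at 3430 against 1610, Col3a1, at 5758 against 2639.8, and Timp1, at 387 against 77.0, were past 2-fold as well. The minor fibrillar chains Col5a1 (346 against 174), Col5a2 (371 against 187) and Col5a3 (30.2 against 26.5) were not. Most of the listed portal fibroblast markers were lower here, several of them near 0 in both. Gsn stood at 2119 against 6992, Clec3b at 52.8 against 255, Cd34 at 32.3 against 97.1 and Thy1 at 0.256 against 24.2. Of these markers only Col15a1, at 188 against 82.7, and Fbln2, at 36.9 against 18.2, were higher here. Other fibroblast genes that were lower here included Gas6 at 437 against 1687 (3.86-fold, 3.68 to 4.05). Fbln1 was at 82.5 against 463 and Sfrp1, a Wnt inhibitor, at 54.3 against 507. The rule genes chose the cells on both sides, so their levels are given only as values, such as Mgp at 672 against 2239 and Fam180a at 247 against 302. A cell that met the rule here was more often near its threshold, since 25 of 180 had all 6 genes against 424 of 989.

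Against VitA-Col1a1+ chow cells, 231 genes (2.76%) were higher and 459 (5.48%) lower in the VitA+ members, and against the library labelled VitA-Col1a1-, 89 (1.07%) and 206 (2.47%). Reln, at 745 here, was at 44.2 in the chow cells and 248 in the labelled library, and Ecm1, at 3049, was at 591 and 775. Gas6 was lowest in the VitA+ members, at 437 against 2112 in chow and 650 in the labelled library. Gate, treatment and library differ together in the chow comparison and cannot be told apart. The labelled library had the same treatment as the members' library, but gate, library and the version of the counting software differed together.

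**Figure D5:**
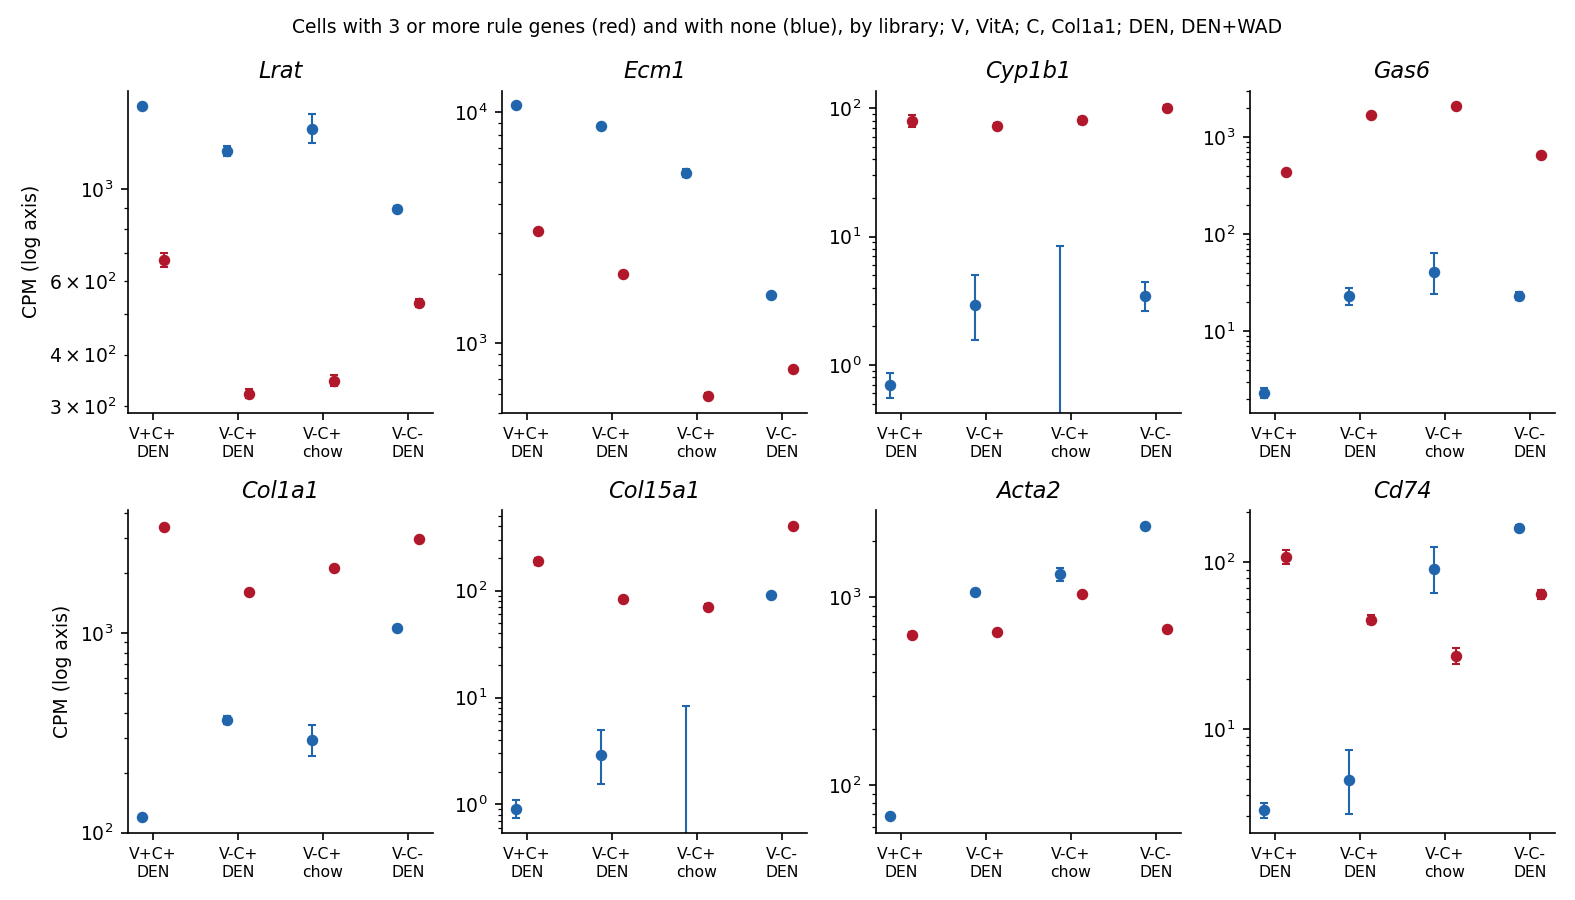
Pooled levels in CPM (log axes) of 8 genes in cells with 3 or more rule genes (red) and with none (blue) in 4 libraries. V stands for VitA, C for Col1a1 and DEN for DEN+WAD, and V-C- is the library labelled VitA-Col1a1-. Bars are exact 95% Poisson intervals, and a blue bar without a point is a level of 0 in the 25 chow cells. Cyp1b1 in red cells stayed between 72.6 and 100 while Gas6 ran from 437 to 2112.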

How the data were processed

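The authors prepared 10x Genomics 3' libraries at a target of 10000 cells (the kit is named both v3.1 and v2), aligned reads to mm10 and deposited raw UMI counts per gene and barcode from Cell Ranger 3.1.0 (6.1.2 for the library labelled VitA-Col1a1-). Deposited counts covered 31053 genes with at least 500 UMIs per barcode, and total counts were 6145748 to 149936344 per library. Each group held 1 library, as the labels give it. Genes were located by Ensembl identifier in GENCODE M21 (99.6% found).

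UMIs were summed per class and scaled to 1000000 (CPM). Levels carry exact Poisson intervals, ratios conditional binomial intervals and shares Clopper-Pearson intervals, at 95%. Cells were thinned to 5000 UMIs with seed 7, in a separate draw for each set of cells, so thinned shares can differ slightly between comparisons. Clustering used scanpy 1.11.5 at a Leiden resolution of 1. Other tools were Python 3.11.15, numpy 2.4.6, scipy 1.17.1 and, for scaling, edgeR 4.0.16 in R 4.3.3. The functions were tested on simulated data. Named genes were the rule genes, list and collagen genes, and the 25 highest and 15 lowest by ratio with at least 50 CPM. The members and all lists were chosen with earlier results of these data known.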

Additional observations from a re-analysis of the deposited data

Results flagged for a closer look

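In 8 of 427 genes looked at, members and comparison cells differed past 2-fold in opposite directions here and in another library, on the scale of log2 ratios after adding 5 CPM. Each value rests on 1 library a group, and the difference between libraries was not tested.

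Against the library labelled VitA-Col1a1-, 7 genes were of this kind. Acta2 had a log2 ratio of 3.11 here and -1.81 there, Tagln 1.82 and -1.19, and Lmod1, a further smooth muscle gene, 1.90 and -1.27. Tgfb2 had 1.24 and -1.67, Tgfb3 1.24 and -1.10, and Col18a1 2.06 and -1.05. Cd74 had 3.77 and -1.26. For Acta2 the levels of members were close, at 629 CPM here and 682 there, and the comparison cells differed, at 68.3 and 2400.1. Tagln was at 2068 and 1608 in members and at 581 and 3667 in comparison cells.

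Against VitA-Col1a1+ chow, where there were 25 comparison cells, Cd74 had 3.77 here and -1.56 there. Cxcl10, a chemokine, had -1.31 here and 2.39 there, with members at 83.6 and 80.8 CPM and comparison cells at 214 and 11.4. In VitA-Col1a1+ DEN+WAD 0 of the genes looked at were of this kind.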

How the results depend on the processing

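The directions of Lrat, Cyp1b1, Gas6 and Col1a1 held under all 19 alternatives run for each, and 89 of 136 values stayed close to their main value, meaning within 1.5 times for a count and within the counting interval otherwise. Member cells numbered 553 with at least 2 of the 6 genes, 95 with at least 4, 103 when the whole rule, the Pecam1 and Ptprc condition included, was read from counts thinned to 5000 UMIs, 102 with Dpt left out of the rule and 103 with Fam180a left out. With at least 2 genes, 190 genes were higher and 47 lower.

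The following are log2 ratios of members over comparison cells, with main values of -1.23 for Lrat, 6.83 for Cyp1b1, 7.56 for Gas6 and 4.83 for Col1a1. Requiring 2 genes gave -0.65, 6.12, 6.42 and 3.99, and requiring 4 gave -1.43 for Lrat, 8.14 for Gas6 and 5.22 for Col1a1. The rule after thinning gave -1.51, 6.04, 7.12 and 4.68. Leaving Dpt out gave -1.42 for Lrat, 5.91 for Cyp1b1 and 4.66 for Col1a1, and leaving Fam180a out -1.39, 6.23 and 5.04 for the same genes. Leaving out Fmo2 gave 6.66 for Gas6 and 5.00 for Col1a1. For Col1a1 alone, leaving out Mgp gave 4.92, leaving out Mfap4 4.89 and leaving out cells over 30000 UMIs 4.39. Without the Pecam1 and Ptprc condition Cyp1b1 was at 6.39 and Gas6 at 6.11. Comparison cells with 0 to 2 genes gave 4.63 for Cyp1b1, 5.59 for Gas6 and 3.95 for Col1a1. Depth-matched comparison cells gave -1.15, 6.07, 7.26 and 3.94. The mean over cells gave 7.82 for Gas6 and 4.68 for Col1a1. TMM scaling gave -1.36 for Lrat and 4.71 for Col1a1, and median-of-ratios scaling gave the same to 2 decimals; both put 299 genes higher and 190 lower, and shifted all log2 ratios by 0.13. The cause of these shifts was not tested.

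Without thinning, the shares of members with Lrat and Cyp1b1 were 96.7% and 70% in place of 87.2% and 32.2%. At a Leiden resolution of 0.5, 96.7% of members fell in 1 cluster in place of 84.4%. At a resolution of 2, 144 members (80%) fell in 1 cluster. A further 17 made up a whole cluster of 17 cells, each with 5 or 6 rule genes. Leaving out the highest 8% of doublet scores, an alternative chosen after seeing the data, gave 179 members and 334 higher genes.

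No paired analysis was possible because each group was 1 library. Values describe 1 library and 180 cells, detection in a cell depends on depth, and free RNA in droplets adds UMIs, so that a low share of cells with a gene is not expression in itself.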
